A study of Mus musculus with 16 samples.

Results

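The genes described here are 33 that encode lysosomal hydrolases, lysosomal membrane proteins and the transcription factor TFEB. They were taken by gene name from the 54532 genes of the deposited tables, and each name matched 1 row. The set holds 10 proteases (8 cathepsins, Lgmn and Tpp1), 7 glycosidases, 7 lipid hydrolases or their helper proteins, 8 membrane proteins and Tfeb. RNA was measured in bone marrow macrophages grown from wild-type C57BL/6 mice aged 2 to 3 months. The macrophage growth factor CSF-1 was given at 12 ng/ml in 15% serum over the first 24 h, and its dose was raised to 120 ng/ml over the next 48 h. The macrophages were passaged once onto dishes coated with the matrix protein fibronectin at 10 µg/ml or onto ordinary uncoated dishes. For 24 h they received 10 µg/ml of a neutralizing antibody to the integrin αV subunit (anti-ITGAV) or its IgG control. The 4 groups were fibronectin with anti-ITGAV, fibronectin with IgG, uncoated with anti-ITGAV and uncoated with IgG, with 4 polyA-selected libraries each. The question was whether αV integrin acts on macrophages that do or do not sit on fibronectin. The labels do not say whether the 4 libraries of a group came from separate mice or cultures, so the p-values measure the spread between these libraries, which may be technical.

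Lysosomes are acidic organelles in which proteases, glycosidases, lipases and sphingolipid hydrolases take apart material delivered by phagocytosis, endocytosis and autophagy. Most soluble hydrolases reach them through mannose 6-phosphate tags and receptors, while membrane proteins such as LAMP1 and LAMP2 line the limiting membrane and channels and carriers let ions and products pass. TFEB and its relatives of the MiT/TFE family switch on many lysosomal genes through an E-box with the core CACGTG, the centre of the CLEAR element, and are held back by mTORC1 signalling at the lysosome surface. Macrophages are phagocytes with an unusually large lysosomal compartment.

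The libraries held 27995035 to 43413650 counts each, and all 33 genes were among the 15469 tested. Library 3 of fibronectin with anti-ITGAV stood apart from the others. Its mitochondrial transcripts took 3.67% of counts (1.30% to 1.60% in the other 15), its mean Pearson correlation with the others was 0.965 (0.976 to 0.983), and its deviations followed transcript GC content with a Spearman rho of -0.70 (-0.30 to 0.55). Macrophage markers summed to 32699 to 38274 CPM (read counts scaled to a common library size) on fibronectin with anti-ITGAV, 32000.1 to 39004 on fibronectin with IgG, 33780.2 to 38261 on uncoated dishes with anti-ITGAV and 34319.5 to 36766 on uncoated dishes with IgG, and Lyz2 was the most abundant. Since the RNA is that of a whole culture, fewer cells of a type and less RNA per cell cannot be told apart.

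To show the sequence feature by which TFEB is known to read lysosomal promoters, stretches of 100 bases from before the transcription start of 6 members are printed here. That of Gla lies farther upstream, where its matches are, and the other 5 end just before a start. They come from RefSeq on GRCm38.p6, run 5′ to 3′ on the gene's own strand, and have the core CACGTG in capitals. Lamp1 has the most copies, Gla and Glb1 are glycosidases that hold it, and Lgmn, Hexa and Psap are 3 of the members that were lower on fibronectin.
Lamp1 (chr8:13159061-13159160, plus strand): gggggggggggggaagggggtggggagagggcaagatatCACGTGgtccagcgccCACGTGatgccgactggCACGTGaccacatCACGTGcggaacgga
Gla (chrX:134601143-134601242, minus strand): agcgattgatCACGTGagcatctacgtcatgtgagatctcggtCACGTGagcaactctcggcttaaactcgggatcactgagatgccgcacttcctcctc
Glb1 (chr9:114400978-114401077, plus strand): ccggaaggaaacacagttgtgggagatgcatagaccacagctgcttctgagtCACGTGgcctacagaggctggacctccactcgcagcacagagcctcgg
Lgmn (chr12:102439093-102439192, minus strand): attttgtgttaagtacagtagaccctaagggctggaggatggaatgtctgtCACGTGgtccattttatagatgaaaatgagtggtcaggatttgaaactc
Hexa (chr9:59539440-59539539, plus strand): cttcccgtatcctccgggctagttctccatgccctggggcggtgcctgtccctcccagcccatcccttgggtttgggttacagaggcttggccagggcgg
Psap (chr10:60277528-60277627, plus strand): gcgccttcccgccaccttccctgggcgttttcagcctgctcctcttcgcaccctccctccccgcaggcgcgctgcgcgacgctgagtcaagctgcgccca

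RefSeq promoters (250 bases before to 50 after a start) were matched by symbol for 29 of the 33 members and were searched on both strands. The palindrome CACGTG was present in 9 of the 29 members (31.0%), against 8.09% of the 27025 genes with promoters of that length. With the flank TCACGTG on either strand, a stricter form of the same motif, it was present in 8 members (27.6%), against 4.29% of all genes. Those 8 were Ctsa, Ctsd, Gaa, Gla, Glb1, Lamp1, Lgmn and Mcoln1, and Ctsl held the core without the flank. Lamp1 had 4 copies in the stretch printed, Gla 2, and Glb1 and Lgmn 1 each. The Lgmn stretch lies before the more downstream of 2 RefSeq starts, in the first intron of the deposited gene, and the promoter of the upstream start holds no copy. Of the 6 members that were lower on fibronectin, 5 have a promoter here and only Lgmn had a match. A match describes the letters only and is not a binding site.

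Per gene length, these macrophages devoted a large part of their messenger RNA to the set. Of 22046 protein-coding genes ranked by mean FPKM (fragments scaled to gene length and library size), 14 members were among the first 100, 22 among the first 500 and 30 among the first 2000, with a median of 170.4 FPKM. Together they made up 5.32% of the summed FPKM. Psap, the precursor of the saposins that help sphingolipid hydrolases reach their substrates, ranked 4th with 3274 FPKM. Ctsb (cathepsin B, a cysteine protease) ranked 5th with 2919.5 FPKM and Ctsd (cathepsin D, an aspartic protease) 9th with 2139.9 FPKM. Next came Cd68 (macrosialin, a macrophage lysosomal glycoprotein) with 976 FPKM, Ctss (cathepsin S, which trims the invariant chain of MHC class II) with 925, Grn (progranulin) with 906 and Lipa (lysosomal acid lipase) with 802. Lamp1 had 769 FPKM, Lgmn (legumain, an asparaginyl endopeptidase) 738 and Gpnmb, a transmembrane glycoprotein of lysosomes and melanosomes, 635. At the low end were Smpd1 (acid sphingomyelinase) with 14.0 FPKM, Mcoln1 (the cation channel TRPML1) with 7.21 and Tfeb with 6.02. Between libraries the spread was smallest for Npc1 and widest for Gaa. The highest library was 1.21 times the lowest for Npc1, the cholesterol transporter, and 2.92 times for Gaa, the acid α-glucosidase that breaks down glycogen.

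**Figure D1:**
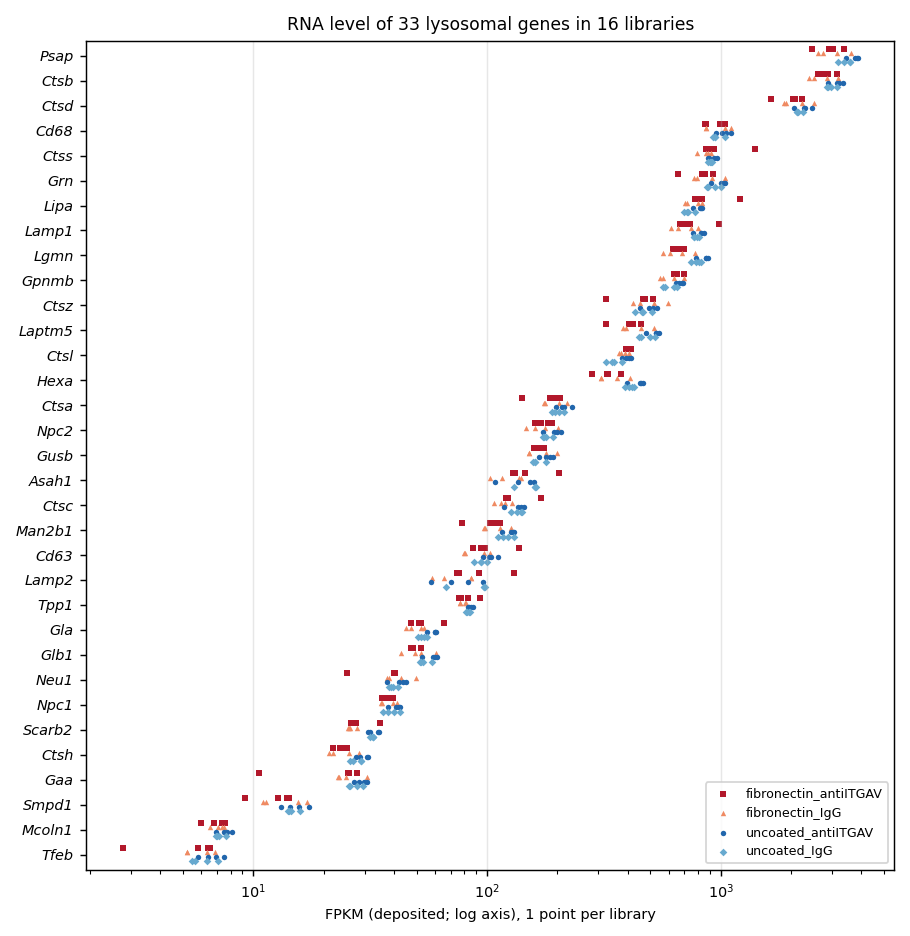
FPKM of the 33 genes in each of the 16 libraries on a log axis, ordered by their mean, with 1 point per library and 1 colour and marker per group. The order spans Psap at 3274 FPKM to Tfeb at 6.02 FPKM, and the 16 points of a gene lie close together beside the distance between genes. The lowest points for Gaa and Tfeb belong to library 3 of fibronectin with anti-ITGAV.

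Fibronectin was compared with uncoated dishes first as an average over the antibodies, 8 libraries against 8. Some lysosomal genes were lower on fibronectin: 6 of the 33 members fell (18.2%) and none rose, and 29 had a negative log2 change, as 49.4% of all genes did, with a median of -0.11. Over all 15469 genes 11.8% were called (edgeR adjusted p under 0.05), 5.26% as lower and 6.58% as higher, and the median log2 change was 0.00. Among the 5325 genes at least as abundant as the lowest member, 7.42% were lower. The 6 were Lgmn, Hexa, Scarb2, Ctsh, Psap and Laptm5, with declines of 15.3% to 20.7%. By role, 2 of 10 proteases fell, 1 of 7 glycosidases, 1 of 7 lipid genes, 2 of 8 membrane proteins and not Tfeb. The number depended on 1 library at a time: it was 3 without library 1 of uncoated with IgG or without library 3 of uncoated with anti-ITGAV. It was 9 without library 3 of fibronectin with anti-ITGAV, the library that stood apart. For these fits without 1 library the share of all genes called is not given here, so their counts are not set against it. The number of members called was 13 with a per-library offset for GC content (21.8% of all genes called) and 18, of them 17 lower, by voom with quality weights (26.7%).

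**Figure D2:**
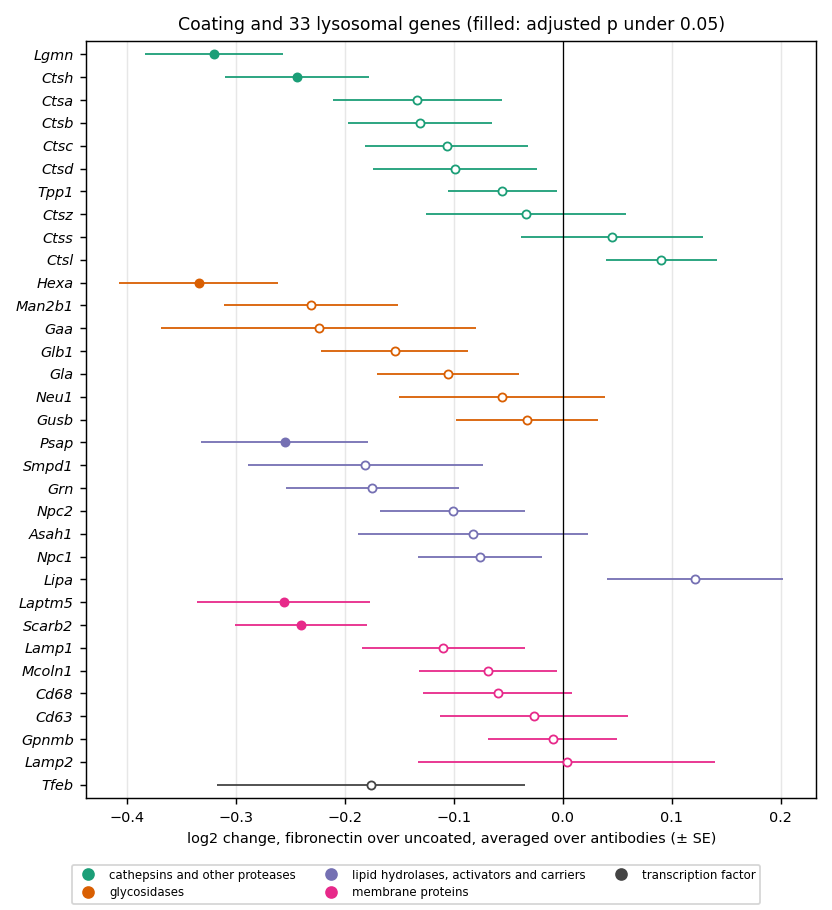
Log2 change of each of the 33 genes on fibronectin over uncoated dishes, averaged over antibodies, grouped by role and coloured by it. Bars are ± 1 SE, worked back from the edgeR F statistic. Filled points have an adjusted p under 0.05. The 6 filled points lie between -0.33 and -0.24, and 29 of the 33 points are left of 0.

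Among the proteases, Lgmn (ENSMUSG00000021190, chr12:102394084-102439813 on GRCm38, minus strand) changed most. Its CPM were 1484, 1639, 1523 and 1488 on fibronectin with anti-ITGAV and 1452, 1827, 1613 and 1350.1 on fibronectin with IgG. On uncoated dishes they were 2071, 2053, 2048 and 1838 with anti-ITGAV and 1895, 1848, 1754 and 1952 with IgG. With anti-ITGAV the coatings did not overlap, and with IgG they overlapped through library 2 on fibronectin. The means were 1547 ± 145 CPM on fibronectin and 1932 ± 118 CPM on uncoated dishes (SD, n = 8 each). The log2 change was -0.32 ± 0.06 (SE; edgeR adjusted p = 0.00272).

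Ctsh (ENSMUSG00000032359, chr9:90054152-90076089, plus strand), cathepsin H, which acts as an aminopeptidase, was a low member. It had 102, 114, 109 and 107 CPM on fibronectin with anti-ITGAV and 101, 129, 118 and 97.3 on fibronectin with IgG. It had 143, 129, 140.1 and 125 CPM on uncoated dishes with anti-ITGAV and 131, 121, 118 and 132 with IgG. All 4 fibronectin libraries with anti-ITGAV were below every uncoated library, while library 2 on fibronectin with IgG was inside their range and library 3 lay at its lower edge. The log2 change was -0.24 ± 0.07 (edgeR adjusted p = 0.0213). This call ended without library 1 of uncoated with IgG or library 3 of uncoated with anti-ITGAV, with adjusted p of 0.0508 to 0.0538.

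The abundant cathepsins B, D and L did not pass the test. Ctsb had 16130.0, 17541, 19127 and 16708 CPM on fibronectin with anti-ITGAV and 15518, 19527, 17503 and 14836 with IgG, against 20703, 19198, 19783 and 17578 on uncoated dishes with anti-ITGAV and 18182, 17671, 17407 and 19419.9 with IgG. The ranges on fibronectin and on uncoated dishes overlapped widely, and the log2 change was -0.13 ± 0.07 (edgeR adjusted p = 0.242). Ctsd had 4931, 5271, 3885 and 4959.9 CPM on fibronectin with anti-ITGAV and 4613, 5989, 5323 and 4489.6 with IgG, against 5928, 5374, 5515 and 4899 on uncoated dishes with anti-ITGAV and 5064, 5041, 5025 and 5401 with IgG. Its lowest value, 3885, was in the library that stood apart, and its log2 change was -0.10 ± 0.08 (edgeR adjusted p = 0.472). Ctsl, cathepsin L, a cysteine protease that also cuts the invariant chain, had 2629.6, 2692, 2621 and 2717 CPM on fibronectin with anti-ITGAV and 2495, 2664, 2578 and 2432 with IgG, against 2698, 2572, 2737 and 2468 on uncoated dishes with anti-ITGAV and 2107, 2242, 2286 and 2492 with IgG. It was one of the 4 members with a positive log2 change, 0.09 ± 0.05 (edgeR adjusted p = 0.299), and its 3 lowest libraries were on uncoated dishes with IgG. The other 5 proteases were Ctsa, a carboxypeptidase that shields β-galactosidase and sialidase, Ctsc, a dipeptidyl peptidase, Ctsz, a carboxypeptidase, the tripeptidyl peptidase Tpp1, and Ctss. None passed, with log2 changes from -0.13 for Ctsa to 0.04 for Ctss. Ctss averaged 1297 ± 252 CPM on fibronectin and 1253 ± 42.9 on uncoated dishes, and its sign turned without the library that stood apart, where it had 1904 CPM.

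Of the glycosidases, which strip sugars from glycolipids and glycoproteins, all 7 had a negative log2 change, with a median of -0.15, and 1 passed. Hexa (ENSMUSG00000025232, chr9:59539540-59565109, plus strand) encodes the α subunit of β-hexosaminidase, which degrades ganglioside GM2. Its CPM were 665, 751, 566 and 664 on fibronectin with anti-ITGAV and 631, 829, 734 and 627 on fibronectin with IgG. On uncoated dishes they were 950.1, 905, 927 and 802 with anti-ITGAV and 845, 815, 785 and 866 with IgG. Only library 2 on fibronectin with IgG reached the range of the uncoated libraries. Tmem202, a tested gene that overlaps Hexa, had 0.960 CPM, against 773 CPM for Hexa. The means were 683 ± 83.4 CPM on fibronectin and 862 ± 60.9 CPM on uncoated dishes (SD, n = 8 each), a log2 change of -0.33 ± 0.07 (edgeR adjusted p = 0.00514). Next in size was Man2b1, the lysosomal α-mannosidase, at -0.23 ± 0.08 (edgeR adjusted p = 0.0727), with 853 ± 118 CPM on fibronectin and 1000.2 ± 63.5 on uncoated dishes. Gaa, at -0.22 ± 0.14, had the widest error of the 7, and in the library that stood apart it had 50.6 CPM against 114 to 149 in the other 7 on fibronectin. Without that library its log2 change was -0.11, and in a fit with an offset for transcript GC content in each library (the GC offset) it was -0.16 and passed (adjusted p = 0.0194). Glb1 (β-galactosidase), Gla (α-galactosidase A), Neu1 (a sialidase) and Gusb (β-glucuronidase) had log2 changes of -0.15, -0.11, -0.06 and -0.03, with edgeR adjusted p of 0.167 to 0.817.

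Among the 7 lipid genes, Psap (ENSMUSG00000004207, chr10:60277627-60302597, plus strand) fell. It had 8496, 9304, 6744 and 8078 CPM on fibronectin with anti-ITGAV and 7694, 10052, 8783 and 7334 on fibronectin with IgG. It had 10855, 10342, 10689 and 9535 CPM on uncoated dishes with anti-ITGAV and 9917, 9342, 8769 and 9959 with IgG. Libraries 2 and 3 on fibronectin with IgG and library 2 on fibronectin with anti-ITGAV were inside the range of the uncoated libraries. The log2 change was -0.26 ± 0.08 (edgeR adjusted p = 0.0380). The call ended in 10 of the 16 fits that left out 1 library, with adjusted p of 0.0564 to 0.0863: libraries 1, 2 and 4 of uncoated with IgG, 1, 2 and 3 of uncoated with anti-ITGAV, 1, 3 and 4 of fibronectin with IgG, and 4 of fibronectin with anti-ITGAV. Lipa, which frees cholesterol and fatty acids from lipoprotein esters, had a positive log2 change of 0.12 ± 0.08 (edgeR adjusted p = 0.401), and its highest value, 3619 CPM, was in the library that stood apart. Without that library its log2 change was 0.04. The other 5 did not pass: Smpd1 at -0.18, Grn, which yields granulins, at -0.17, the cholesterol carrier Npc2 at -0.10, the acid ceramidase Asah1 at -0.08 and Npc1 at -0.08.

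Of the 8 membrane proteins, Scarb2 and Laptm5 fell. Scarb2 (ENSMUSG00000029426, chr5:92441314-92506833, minus strand) encodes LIMP-2, the receptor that carries β-glucocerebrosidase to lysosomes. It had 172, 175, 219 and 167 CPM on fibronectin with anti-ITGAV and 168, 164, 177 and 164 on fibronectin with IgG, against 199, 215, 221 and 201 on uncoated dishes with anti-ITGAV and 207, 207, 200.1 and 208 with IgG. Apart from library 3 on fibronectin with anti-ITGAV, every fibronectin library was below every uncoated one. The means were 176 ± 18.2 CPM on fibronectin and 207 ± 7.60 CPM on uncoated dishes (SD, n = 8 each), a log2 change of -0.24 ± 0.06 (edgeR adjusted p = 0.0137). Without that library the log2 change was -0.29 (adjusted p = 9.97e-05).

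Laptm5 (ENSMUSG00000028581, chr4:130913125-130936141, plus strand) encodes a lysosomal membrane protein of blood cells. It had 1574, 1735, 1227 and 1624 CPM on fibronectin with anti-ITGAV and 1536, 1991, 1751 and 1486 with IgG, against 2124, 2015, 2051 and 1841 on uncoated dishes with anti-ITGAV and 1909.6, 1714, 1748 and 2028 with IgG. The same 3 fibronectin libraries as for Psap reached the uncoated range. The log2 change was -0.26 ± 0.08 (edgeR adjusted p = 0.0436). The call ended in 9 of the 16 fits that left out 1 library, with adjusted p of 0.0582 to 0.0917: libraries 1 and 4 of uncoated with IgG, 1, 2 and 3 of uncoated with anti-ITGAV, 1, 3 and 4 of fibronectin with IgG, and 1 of fibronectin with anti-ITGAV.

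Lamp1, a chief glycoprotein of the limiting membrane, had 1846, 1996, 2627 and 1930.5 CPM on fibronectin with anti-ITGAV and 1803, 2160.1, 2025 and 1684 with IgG, against 2251, 2273, 2249 and 2056 on uncoated dishes with anti-ITGAV and 2075, 2133, 2076 and 2211 with IgG. Its log2 change was -0.11 ± 0.07 (edgeR adjusted p = 0.412). It fell by 0.17 (adjusted p = 0.0355) when the library that stood apart, its highest, was left out. Gpnmb had 4241, 4596, 4242 and 4160.2 CPM on fibronectin with anti-ITGAV and 3784, 4589, 4181 and 3663 with IgG, against 4554, 4342, 4589 and 4224 on uncoated dishes with anti-ITGAV and 4143, 3804, 3728 and 4316 with IgG. The coatings overlapped throughout, with a log2 change of -0.01 ± 0.06 (edgeR adjusted p = 0.948). Lamp2, needed for the fusion of autophagosomes and for chaperone-mediated autophagy, averaged 810.2 ± 210.3 CPM on fibronectin and 805 ± 153 on uncoated dishes. Its log2 change was 0.00 ± 0.14, and its sign turned in 7 of the 16 fits that left out 1 library and under size factors by RLE. With the GC offset it was lower at -0.13 (adjusted p = 0.0239). Cd63 (a tetraspanin), Cd68 and Mcoln1 had log2 changes of -0.03, -0.06 and -0.07, and did not pass. By voom Cd63 was lower at -0.15 (adjusted p = 0.0254). Tfeb (ENSMUSG00000023990, chr17:47737030-47792419, plus strand) had 37.2, 37.4, 15.8 and 33.3 CPM on fibronectin with anti-ITGAV and 30.5, 39.6, 36.5 and 30.2 with IgG, against 43.8, 39.4, 37.2 and 33.3 on uncoated dishes with anti-ITGAV and 40.5, 32.2, 31.2 and 36.6 with IgG. Its lowest value was in the library that stood apart, and its log2 change was -0.18 ± 0.14 (edgeR adjusted p = 0.499). Without that library it was -0.07.

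**Figure D3:**
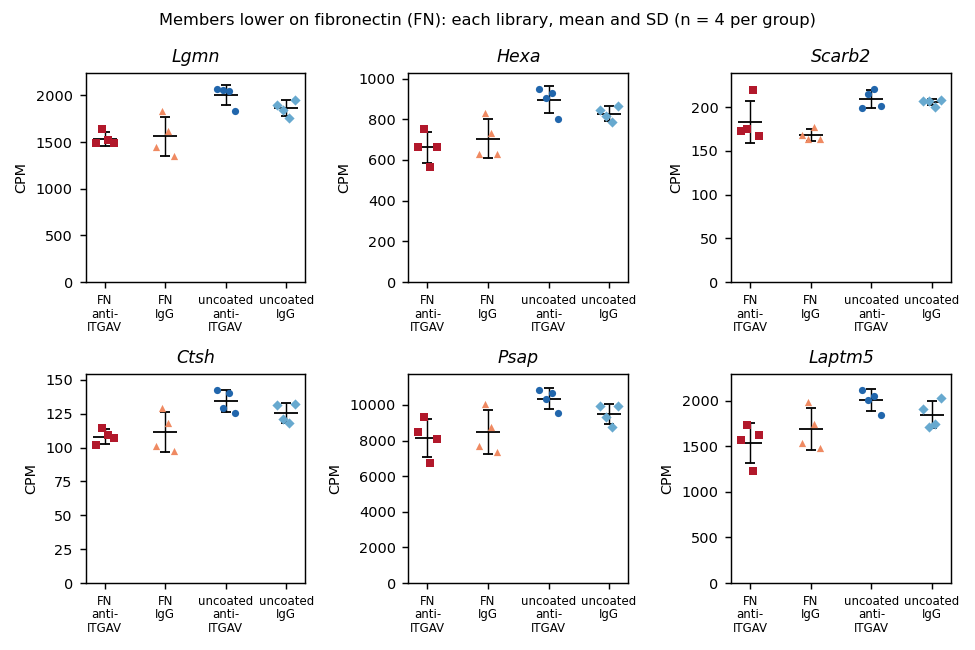
CPM of the 6 members that were lower on fibronectin, in each library, with the group mean and SD (n = 4 per group); fibronectin is shortened to FN and each axis starts at 0. Group means on fibronectin are below those on uncoated dishes in all 6 panels, and the SD on fibronectin with IgG is above that on uncoated dishes with IgG in all 6.

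Split by antibody, the same comparison gave fewer calls. With anti-ITGAV, Lgmn and Hexa were lower on fibronectin, 2 of 33 members against 5.66% of all genes called (2.83% lower), and 27 members had a negative log2 change with a median of -0.15, where 49.1% of all genes were negative. Lgmn averaged 1534 ± 72.4 CPM on fibronectin and 2002 ± 110.4 on uncoated dishes, a log2 change of -0.38 ± 0.09 (SD, n = 4 each; edgeR adjusted p = 0.0174). Hexa averaged 662 ± 75.6 CPM on fibronectin and 896 ± 65.6 on uncoated dishes, a log2 change of -0.44 ± 0.10 (edgeR adjusted p = 0.0183). With the GC offset that of Hexa was -0.27 (adjusted p = 0.00629). For 7 members, Lgmn, Hexa, Laptm5, Ctsh, Psap, Man2b1 and Glb1, every fibronectin library was below every uncoated one, which 7.53% of all genes showed. No member was called without library 1, 2 or 3 of uncoated with anti-ITGAV or with the 8 libraries alone, 1 was without library 1 or 4 of fibronectin with anti-ITGAV, and 4 or 5 were without libraries 2 or 3 of fibronectin with anti-ITGAV or 2 or 4 of fibronectin with IgG. For these fits too the share of all genes called is not given here. Lgmn lost its call without libraries 1, 2 and 3 of uncoated with anti-ITGAV and 1 and 4 of fibronectin with anti-ITGAV (adjusted p of 0.0532 to 0.0614), and Hexa without libraries 1, 2 and 3 of uncoated with anti-ITGAV (0.0578 to 0.0604).

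With IgG no member passed, while 3.79% of all genes were called by edgeR, 1.42% as lower. Unadjusted, 4 of 33 members had p under 0.05, against 15.2% of all genes, and 26 had a negative log2 change with a median of -0.06, where 49.7% of all genes were negative. DESeq2 called 1, voom with quality weights 11, and limma on log2(FPKM + 1) 1. The shares of all genes called by these methods under IgG are not given here. Scarb2 had the smallest adjusted p, 0.0695, with 168 ± 6.51 CPM on fibronectin and 206 ± 3.72 on uncoated dishes and a log2 change of -0.29 ± 0.09. It passed without library 3 of fibronectin with anti-ITGAV (adjusted p = 0.00295), and without library 2 of fibronectin with IgG the only member to pass was Lgmn (0.0339). The 2 antibody backgrounds use different libraries but 1 shared estimate of spread, and their difference is the interaction given further on.

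Anti-ITGAV itself changed no member by the edgeR test. On fibronectin, 0 of 33 members passed (0.0129% of all genes did), none had an unadjusted p under 0.05 (4.65% of all genes), and 14 were positive and 19 negative, where 49.98% of all genes were negative, with a median log2 change of -0.04 and a median SE of 0.11. On uncoated dishes, 0 of 33 passed (0.0129% of all genes), 1 had an unadjusted p under 0.05 (3.04% of all genes), and 30 were positive and 3 negative, where 46.8% of all genes were negative, with a median of 0.10. The median was 0.01 over all genes and 0.03 over the 5325 genes at least as abundant as the lowest member, of which 38.1% were negative. By voom with quality weights Ctsl alone was called on uncoated dishes, and the share of all genes called by voom there is not given here. DESeq2 called none on either coating.

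Ctsl had the smallest p of the members for the antibody. It averaged 2619 ± 123 CPM on uncoated dishes with anti-ITGAV and 2282 ± 159 with IgG, and 2665 ± 47.1 on fibronectin with anti-ITGAV and 2542 ± 101 with IgG (SD, n = 4 each). Averaged over coatings its log2 change was 0.13 ± 0.05, that of Lipa 0.20 ± 0.08 and that of Gla 0.14 ± 0.07, each with an unadjusted p under 0.05 (3.59% of all genes) and an edgeR adjusted p of 1.00. In that average edgeR called no member and 0.0711% of all genes, and DESeq2 called no member. Voom with quality weights called Ctsl, Lipa and Gpnmb, and its share of all genes there is not given here. Lipa averaged 2436 ± 112 CPM on uncoated dishes with anti-ITGAV and 2187 ± 113 with IgG, and 2728 ± 596 on fibronectin with anti-ITGAV and 2311 ± 175 with IgG. Its value in the library that stood apart, 3619 CPM, lies above every other library.

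The antibody's effect on fibronectin minus its effect on uncoated dishes was not called for any of the 33 members or for any gene. Unadjusted, 0 members had p under 0.05 (3.97% of all genes did), the smallest adjusted p was 0.646, and 24 of 33 differences were negative with a median of -0.13 (median SE 0.15). Over all genes 52.3% were negative, with a median of -0.02, and among the 5325 abundant genes 54.9%, with a median of -0.04. All 7 glycosidases were negative, with a median of -0.19. The largest positive difference was that of Lamp2, 0.55 ± 0.27, which had 902 ± 247 CPM on fibronectin with anti-ITGAV, 718 ± 140.0 on fibronectin with IgG, 744 ± 156 on uncoated dishes with anti-ITGAV and 867 ± 143 on uncoated dishes with IgG. Since no difference passed, the coating effects with anti-ITGAV and with IgG are not shown to differ.

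**Figure D4:**
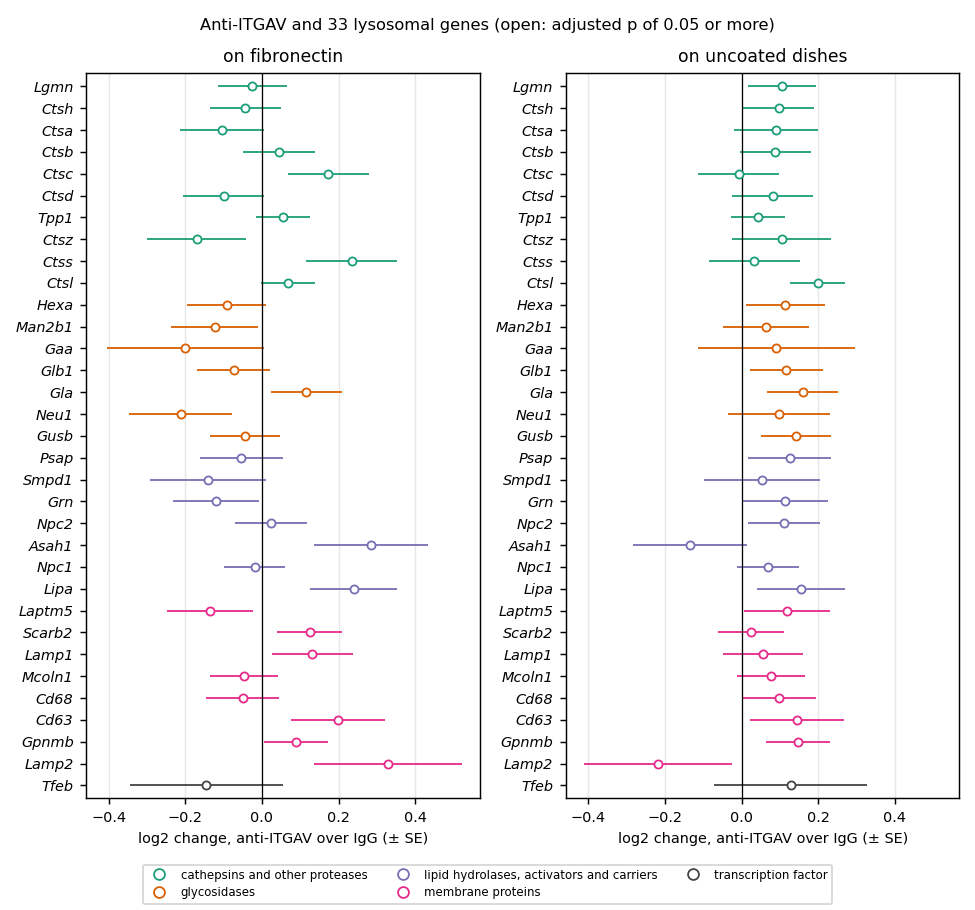
Log2 change of each of the 33 genes with anti-ITGAV over IgG on fibronectin (left) and on uncoated dishes (right), in the gene order and colours of the coating plot. Bars are ± 1 SE, worked back from the edgeR F statistic. All points are open since no adjusted p is under 0.05. On uncoated dishes 30 points lie right of 0 and on fibronectin 14 do.

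The level of the whole set moved with a trend of the libraries. The median log2 deviation of the 33 members from the mean of the 16 libraries ran from -0.19 to 0.20, and the members' transcript GC content ran from 38.7% for Lamp2 to 63.2% for Tfeb. It was above the median of the genes tested (49.2%) for 23 of the 33. In each group the library whose deviations rose most with GC content had the highest median of the members: library 2 on fibronectin with anti-ITGAV (rho 0.27, median 0.02), 2 on fibronectin with IgG (0.55, 0.13), 1 on uncoated dishes with anti-ITGAV (0.51, 0.20) and 4 on uncoated dishes with IgG (0.40, 0.11). Among libraries with a rho of -0.30 to -0.14, the 3 on fibronectin had medians of -0.19 to -0.07 and the 4 on uncoated dishes had -0.03 to 0.02. At a higher rho the ranges of the coatings overlapped through library 2 on fibronectin with IgG (rho 0.55, median 0.13). It was above library 4 on uncoated dishes with IgG, which had a lower rho (0.40, median 0.11). At a rho of 0.39, library 3 on fibronectin with IgG had a median of -0.004 and library 3 on uncoated dishes with anti-ITGAV had 0.13. The range of -0.30 to -0.14 and these libraries were not chosen beforehand, and no difference between them was tested. The part of this trend in the change of single members was not tested beyond the fit with a GC offset. That fit gave Lgmn -0.31, Hexa -0.29, Scarb2 -0.27, Ctsh -0.25, Psap -0.21 and Laptm5 -0.20, all with adjusted p under 0.05. It also called a larger share of all genes than the main fit, as given with the averaged comparison. The members took 5.96 ± 0.21% of counts on fibronectin with anti-ITGAV, 5.89 ± 0.58% on fibronectin with IgG, 6.67 ± 0.30% on uncoated dishes with anti-ITGAV and 6.30 ± 0.26% on uncoated dishes with IgG (SD, n = 4 each).

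**Figure D5:**
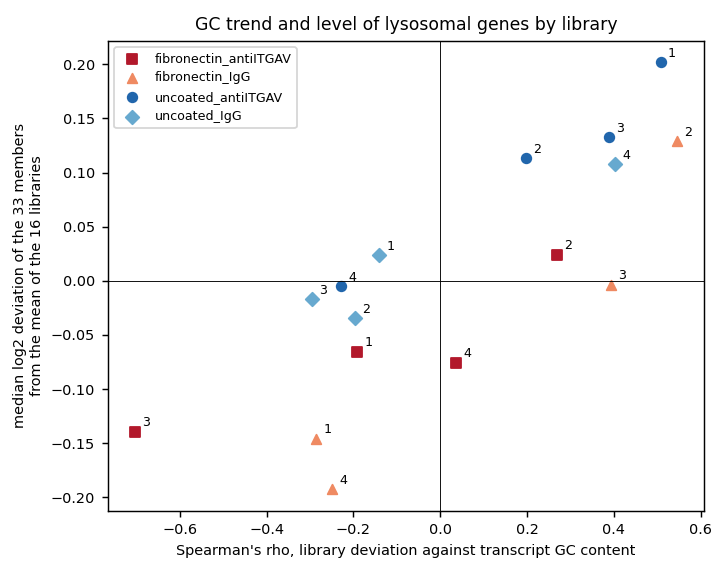
Median log2 deviation of the 33 members from the mean of the 16 libraries (vertical) against Spearman's rho between a library's deviations and transcript GC content (horizontal), 1 point per library, numbered by replicate. Points at the right are mostly high and points at the left low. At a rho of -0.30 to -0.14, a range not set beforehand, the fibronectin libraries lie below the uncoated ones. At a higher rho, library 2 on fibronectin with IgG lies among the uncoated ones. No difference here was tested.

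Lysosomal genes outside the set were examined with the same test, in which 5.26% of all genes were lower and 6.58% higher on fibronectin averaged over antibodies. The lists were chosen with earlier results of these data known, so they are a description and not independent evidence. Of 35 other acid hydrolases, 11 fell and 1 rose on fibronectin averaged over antibodies, with a median log2 change of -0.15. Ctsf (cathepsin F), Scpep1 (a serine carboxypeptidase), Pla2g15 (the lysosomal phospholipase A2) and Sgsh (sulfamidase, which degrades heparan sulfate) differed by log2 -0.49 ± 0.09, -0.26 ± 0.06, -0.41 ± 0.10 and -0.40 ± 0.10, with edgeR adjusted p of 0.00214 to 0.0133. The riser was Ctsk, cathepsin K, an osteoclast collagenase, at 0.41 ± 0.11 (edgeR adjusted p = 0.0163). Of 28 other membrane proteins, 7 fell and 1 rose, with a median of -0.12. Sidt2 (a lysosomal nucleic acid transporter), Tpcn1 (the cation channel TPC1), Slc29a3 (a nucleoside carrier) and Ctns (the cystine exporter) differed by log2 -0.49 ± 0.08, -0.49 ± 0.08, -0.36 ± 0.07 and -0.32 ± 0.06, with edgeR adjusted p of 0.000867 to 0.00219. Slc15a3, a proton-coupled carrier of histidine and peptides, rose by 0.44 ± 0.10 (edgeR adjusted p = 0.00701). None of 17 subunits of the V-ATPase, which acidifies the lumen, passed by edgeR, 1 had an unadjusted p under 0.05, and the median was 0.07. Of 5 cathepsin inhibitors tested, 0 passed by edgeR and 1 had an unadjusted p under 0.05.

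Genes that sort hydrolases went both ways. Igf2r, the mannose 6-phosphate receptor that carries tagged hydrolases, rose with a log2 change of 0.39 ± 0.07 (edgeR adjusted p = 0.000703), and Gnptab, which begins the tag, with 0.22 ± 0.06 (0.0152). Gnptab did not pass without library 2 of uncoated with IgG (adjusted p = 0.0530) or without the filter on low counts (0.0632). Sort1 (sortilin) and Vps39, a subunit of the HOPS tether, fell, with -0.28 ± 0.06 and -0.28 ± 0.05 (edgeR adjusted p = 0.00296 and 0.00143). These 4 were the only ones called of 19 sorting genes tested, against 11.8% of all genes called.

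Of 18 genes of the MiT/TFE family and of mTORC1 at the lysosome, Tfeb aside, 4 fell and 1 rose. Rragd, a Rag GTPase that recruits mTORC1, averaged 8.08 ± 0.98 and 7.11 ± 0.31 CPM on fibronectin with anti-ITGAV and with IgG, against 12.1 ± 1.00 and 11.6 ± 0.49 CPM on uncoated dishes with anti-ITGAV and with IgG. Its log2 change was -0.64 ± 0.08 (edgeR adjusted p = 4.42e-05), and it was -0.42 by limma on log2(FPKM + 1). Fnip2 and Flcn, which form the folliculin complex that acts on Rag GTPases, changed by -0.34 ± 0.06 and -0.34 ± 0.09, and Tfec, the MiT/TFE relative of macrophages, by -0.30 ± 0.06, with edgeR adjusted p of 0.000538 to 0.0189. Rraga rose by 0.24 ± 0.05 (edgeR adjusted p = 0.00800) and missed the threshold without the filter on low counts (0.0503). Of 20 autophagy genes 4 fell and 0 rose, with a median of -0.15: Ulk1, the initiating kinase, at -0.63 ± 0.09, the ATG8 proteins Gabarapl1 at -0.47 ± 0.07 and Map1lc3b at -0.32 ± 0.06, and the receptor Nbr1 at -0.33 ± 0.08, with edgeR adjusted p of 0.000125 to 0.00766. These counts stand against the 11.8% of all genes called, 5.26% as lower and 6.58% as higher. No gene of the 7 lists of lysosomal and autophagy genes was called for the antibody by edgeR on either coating or in their average.

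Marker lists of other cells were read against the same shares of all genes in the averaged comparison, 11.8% called and 5.26% lower. Of 15 macrophage markers, Mertk and Adgre1 fell and Cx3cr1 rose. Of 15 neutrophil and granule markers 8 fell, and their summed level was 307 to 458 CPM on fibronectin with anti-ITGAV, 434 to 538 on fibronectin with IgG, 421 to 472 on uncoated dishes with anti-ITGAV and 525 to 566 on uncoated dishes with IgG. Of 6 mast cell and basophil markers tested 3 fell, with sums of 9.19 to 12.8, 14.2 to 18.6, 19.5 to 25.6 and 26.5 to 33.7 CPM in the same order of groups. Of 6 fibroblast markers Lum was at 0 in every library and the 3 tested fell, with sums of 4.90 to 8.05, 7.32 to 8.38, 10.4 to 12.4 and 12.0 to 14.8 CPM. Of the 5 B cell markers 2 fell, with sums of 2.59 to 4.35, 2.50 to 3.94, 4.85 to 6.35 and 3.81 to 6.15 CPM. Of the 6 monocyte markers Plac8 fell, with sums of 903 to 1022, 714 to 1099, 794 to 1263 and 975 to 1278 CPM. Of the 3 osteoclast markers tested Dcstamp rose and Nfatc1 fell. None of 6 dendritic cell markers and not the 1 tested T or NK cell marker passed by edgeR. Unadjusted, 1 of them had a p under 0.05. Some granule genes were also lower with anti-ITGAV. Averaged over coatings, where 0.0711% of all genes were called, these were Ltf, Lcn2, S100a9 and Camp of the 15 neutrophil markers and Prss34 of the mast cell and basophil markers. On fibronectin, where 0.0129% of all genes were called, they were Ltf and Lcn2. The part of these cells in the change of the lysosomal genes was not tested.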

How the data were processed

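Per the labels' protocols, the 16 libraries were made from polyA RNA and read as paired ends (NovaSeq X Plus). HISAT2, featureCounts and StringTie, and as builds GRCm38.p6 and mm10, appear in the submitters' processing notes. Not given in the sources used here: versions, the strand setting and the treatment of reads that map to several places, so reads shared by overlapping genes or close copies could be split or lost. Of the 33 members, 10 overlap a tested gene. The deposited count table holds whole-number counts per gene by the authors, not normalized, and the deposited FPKM table holds the authors' values scaled to gene length and library size.

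The counts were tested with edgeR 4.0.16 in R 4.3.3 (TMM scaling, filterByExpr with a minimum count of 10, robust quasi-likelihood fit, 1 mean for each of the 4 groups over all 16 libraries). p-values were adjusted by Benjamini-Hochberg over 15469 genes, with a threshold of 0.05. The SE printed with an edgeR log2 change was worked back from the test, as the absolute log2 change divided by the square root of the F statistic. CPM are counts scaled to TMM-adjusted library size, and FPKM served for levels between genes. DESeq2 1.42.0 and limma 3.58.1 (log2(FPKM + 1), log2(FPKM + 0.1) and voom) were alternatives, as were other filters and scalings, a GC offset per library, the replicate number as a block, and each library left out in turn. The procedure was tested on simulated data. Plots used matplotlib 3.10.9 in Python 3.11.15.

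Members, gene lists and tests were chosen with earlier results of these data known. Values in every library are given for each member called in any comparison (up to 12, by adjusted p) and for Tfeb, Lamp1, Ctsb, Ctsd, Ctsl and Gpnmb, and up to 4 called genes of a list are named by adjusted p. Ctsk, Slc15a3 and Flcn were named after their values were seen, as were other members given with group means. Of 13 mitochondrial transcripts listed, 12 were tested and none passed the coating test averaged over antibodies by edgeR, 0 with an unadjusted p under 0.05. Depth was 27995035 to 43413650 counts per library, and the libraries' spread, not counting error, sets the precision. No pair of libraries of a group agreed within sampling noise (chi-square per degree of freedom 5.20 to 194).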

Additional observations from a re-analysis of the deposited data

Results flagged for a closer look

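In 13 of 132 groups of 4 libraries (33 members in 4 groups), 1 library lay farther from the others than Dixon's 95% critical value allows. Chance gives about 1 in 20. Library 3 of fibronectin with anti-ITGAV was the distant library for 6 members. It was the highest for Ctsc with 988 CPM, Ctss with 1904 CPM, Lipa with 3619 CPM and Scarb2 with 219 CPM, and the lowest for Gaa with 50.6 CPM and Neu1 with 94.2 CPM. The 4 high members have a transcript GC content of 41.1% to 46.3%, and Gaa and Neu1 have 59.5% and 53.2%. Over all genes with a known GC content, this library's deviations fell with GC content. Members below the critical value went both ways. This library was the highest of its group for Lamp2 with 1250 CPM (GC content 38.7%), but also for Lamp1 with 2627 CPM (51.6%) and Cd63 with 506 CPM (58.1%). The part of GC content in these values was not tested.

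Library 4 of uncoated with IgG was the highest for Ctsd with 5401 CPM and Smpd1 with 53.8 CPM, and the lowest for Asah1 with 450.2 CPM and Lamp2 with 652 CPM. Library 4 of uncoated with anti-ITGAV was the lowest for Lgmn with 1838 CPM and Lamp1 with 2056 CPM. Library 2 of fibronectin with anti-ITGAV was the highest for Glb1 with 159 CPM.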

How the results depend on the processing

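The number of members called for fibronectin averaged over antibodies (6) was 18 by voom with quality weights, 13 with a GC offset per library and 18 with that offset and library 3 of fibronectin with anti-ITGAV left out, the last chosen after seeing the data, and 3 to 9 with 1 library left out. Under anti-ITGAV (2) it was 5 by DESeq2, 4 with a filter of 1 CPM in 4 libraries, 0 with the 8 libraries alone, 4 by limma with either pseudocount, 12 by voom, 8 with the GC offset, 10 with the offset and that library left out, and 0 to 5 with 1 library left out. Under IgG (0) it was 1 by DESeq2, with the 8 libraries alone and by limma with either pseudocount, 11 by voom, 7 with the GC offset, 12 with the offset and that library left out, and 0 to 1 with 1 library left out. For anti-ITGAV, voom gave 1 on uncoated dishes and 3 averaged over coatings, and the other alternatives 0. The interaction called 0 throughout. Lgmn, Hexa and Scarb2 passed for fibronectin averaged over antibodies in all 27 alternatives, with adjusted p up to 0.00860, 0.0146 and 0.0365. Voom and the GC offset called larger shares of all genes than the main fit in the averaged coating comparison, as given above. For the other counts here the share of all genes under each setting is not given. Higher counts there do not by themselves set the members apart from other genes. The causes were not tested.

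Of the 27 members that did not pass for fibronectin averaged over antibodies, 16 passed under at least 1 alternative: 11 only by voom or with a GC offset, and Ctsc, Gla, Glb1, Lamp1 and Man2b1 also under others. Voom and the GC offset also called more of all genes than the main fit did. Leaving out library 3 of fibronectin with anti-ITGAV moved the log2 change of 19 of the 27 by over 1.5 times. Some of the 27 changed sign. Lamp2 (log2 change 0.00) was -0.00173 with RLE size factors, -0.00174 by DESeq2, -0.00692 with the replicate block, -0.00905 by limma on log2(FPKM + 1) with and without the filter, -0.00923 with the pseudocount 0.1, -0.0634 by voom, -0.128 with the GC offset (adjusted p = 0.0239) and -0.129 with that library also left out (0.0136), both past the threshold, and -0.0954 to 0.0667 with 1 library left out. Ctss was -0.0585 by voom, -0.0488 with the offset and that library left out, and -0.0465 to 0.0694 with 1 library left out. Ctsz was 0.0386 with the offset, 0.0136 with that library also left out, and -0.0853 to 0.0305 with 1 left out. Cd63 was 0.130 with the offset (adjusted p = 0.670), -0.147 by voom (0.0254), -0.120 with the offset and that library left out (0.00789), and -0.103 to 0.00146 with 1 left out, Neu1 was 0.00440 with the offset and that library left out and -0.0992 to 0.0169 with 1 left out, and Gpnmb was -0.0415 to 0.0106 with 1 left out.

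With the replicate number as a block, 5 members passed for fibronectin averaged over antibodies and 2 under anti-ITGAV; Laptm5 did not. The numbers gave no sign of pairing: 4 of 24 same-numbered pairs correlated above 0.1 (-0.30 to 0.28), and 2 correlated best with their own number. The deviations compared also follow each library's GC trend, so this check cannot exclude that same-numbered libraries share a source. The median SE was 0.07 for the averaged comparisons, 0.11 for those within 1 antibody or coating and 0.15 for the interaction. Changes of single members well above a few percent could therefore be missed. Man2b1 for the coating and Lipa for the antibody did not pass at the log2 changes given above. A member that was not called is not shown to be unchanged.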
